A study of Mus musculus with 7 samples.

Results

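Cell cycle and DNA replication genes encode the proteins that take a cell from growth through DNA synthesis into mitosis and apart into daughter cells. A set of 47 such genes was followed in mouse gastrocnemius, a fast hindlimb muscle, at 4, 6 and 8 weeks of age. The genes were listed by symbol, with earlier results of these data known, and all 47 were among the 49568 gene symbols counted. Of them, 38 had enough counts for a test and were among the 14976 genes tested. The muscles came from male mice of the strain C57Bl6/J (C57BL/6J in the methods) and gave 1 library each: 2 at 4 weeks, 2 at 6 weeks and 3 at 8 weeks. No treatment is named for the libraries. The titles of the 8-week libraries carry the tag Ctl, which the study's methods use for littermates without CreER in crosses given tamoxifen to induce Cre. It is not stated whether the 8-week mice were such littermates or received tamoxifen, so genotype or treatment and age cannot be told apart at 8 weeks. Nothing further is said of litters, so p-values measure the spread between these mice only.

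Muscle fibers are post-mitotic. Their nuclei are added by fusion of myoblasts, which descend from satellite cells, the Pax7-expressing stem cells under the fiber's basal lamina, and these cells must divide before they fuse. Other cells of the muscle, such as endothelial cells, fibroblasts and macrophages, divide too. In the cycle itself, D-type cyclins start G1, cyclin E and E2F factors lead into S phase, the MCM helicase opens DNA at origins, cyclins A and B with Cdk1 drive mitosis, kinesins and kinases build the spindle, and the anaphase-promoting complex ends mitosis by marking proteins for destruction. In whole muscle, fewer dividing cells and less RNA of these genes per cell cannot be told apart.

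The libraries held 30836057 to 41784144 counts, and a single mitochondrial rRNA gene, mt-Rnr2, made up 25.1% to 37.4% of each. The fiber markers summed to between 63206 and 83525 CPM in every library, so the defining markers of the labelled tissue were present. CPM are counts divided by the library total in units of 1e+06, after scaling the totals by TMM factors. The 47 members together were rare. They summed to 124 and 154 CPM in the 4-week libraries, to 86.7 and 86.0 at 6 weeks, and to 96.9, 89.6 and 88.9 at 8 weeks. The 4-week libraries were thus both above all others, and replicate 2 stood above replicate 1. Replicate 2 held the highest value of all 7 libraries for 39 of the 47 members, and its level was a median of 1.60 times that of replicate 1 over the members, against 1.0 over all genes tested. Single counts ranged from 0 to 831, and for members with few counts the counting error is large.

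Promoter sequence shows what the members share apart from their function. RefSeq promoters, from 250 bases before to 50 bases after the start site on GRCm38.p6, were matched by symbol for 38 of the 47 members, and the first window listed was taken for each gene. No window was matched for Kif20a, Aurkb, Ccne2, Ccna2, Mcm4, Foxm1, Ccnd1, Ccnd2 and Tpx2. Motifs were searched on both strands: the CCAAT box, the core of the cell cycle homology region (CHR, TTTGAA or TTCGAA), through which complexes of the MuvB core act, and the E2F site (TTCCCGC, or else TTGGCGC, or else TTCGCGC, or else TTGCCGC). Of the 38 promoters, 29 (76.3%) held a CCAAT box, 23 (60.5%) a CHR core and 12 (31.6%) an E2F site. Over 27025 RefSeq promoters of the same length the shares were 37.9%, 19.4% and 9.69%. A CCAAT box together with a CHR core was found in 21 members (55.3%) and in 7.7% of all promoters. The matches are a description of letters and not of binding.

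The 200 bases before the start site are shown for the members that were lower at 8 than at 4 weeks in the test below and in every alternative run, where a window was given, and then for Aurka, which was higher, and Rrm1, which did not pass. They are written 5′ to 3′ along the gene, and capitals mark the 3 motifs. The windows are chr7:135716380-135716579 (minus strand) for Mki67, chr11:99024190-99024389 (minus) for Top2a, chr1:128359706-128359905 (minus) for Mcm6, chr2:164769729-164769928 (plus) for Ube2c, chr19:37376182-37376381 (plus) for Kif11, chr7:80294251-80294450 (plus) for Prc1, chr2:172370571-172370770 (minus) for Aurka and chr7:102441495-102441694 (plus) for Rrm1.
Mki67: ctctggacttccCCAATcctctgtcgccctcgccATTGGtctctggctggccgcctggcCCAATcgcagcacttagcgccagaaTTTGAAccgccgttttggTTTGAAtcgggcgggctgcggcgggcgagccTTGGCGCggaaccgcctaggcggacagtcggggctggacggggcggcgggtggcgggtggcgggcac
Top2a: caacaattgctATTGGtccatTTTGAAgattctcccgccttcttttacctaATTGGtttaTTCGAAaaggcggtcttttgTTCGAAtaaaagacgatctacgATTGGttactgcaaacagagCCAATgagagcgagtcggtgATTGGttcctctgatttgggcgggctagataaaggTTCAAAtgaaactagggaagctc
Mcm6: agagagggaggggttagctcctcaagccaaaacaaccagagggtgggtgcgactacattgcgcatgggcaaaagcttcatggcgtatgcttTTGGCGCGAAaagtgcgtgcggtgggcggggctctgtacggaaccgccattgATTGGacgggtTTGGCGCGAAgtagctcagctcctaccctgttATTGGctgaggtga
Ube2c: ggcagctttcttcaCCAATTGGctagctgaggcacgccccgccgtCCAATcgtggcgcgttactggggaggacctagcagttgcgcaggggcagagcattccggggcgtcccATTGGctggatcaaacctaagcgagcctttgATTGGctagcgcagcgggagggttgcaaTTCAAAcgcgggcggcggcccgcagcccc
Kif11: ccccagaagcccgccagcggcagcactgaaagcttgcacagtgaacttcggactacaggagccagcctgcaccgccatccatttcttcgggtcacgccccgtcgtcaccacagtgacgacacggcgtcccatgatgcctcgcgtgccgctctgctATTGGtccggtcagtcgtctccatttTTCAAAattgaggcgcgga
Prc1: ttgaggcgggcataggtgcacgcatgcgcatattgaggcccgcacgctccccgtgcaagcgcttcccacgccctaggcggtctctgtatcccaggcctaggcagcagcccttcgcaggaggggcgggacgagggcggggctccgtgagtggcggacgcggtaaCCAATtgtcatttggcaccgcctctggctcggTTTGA
Aurka: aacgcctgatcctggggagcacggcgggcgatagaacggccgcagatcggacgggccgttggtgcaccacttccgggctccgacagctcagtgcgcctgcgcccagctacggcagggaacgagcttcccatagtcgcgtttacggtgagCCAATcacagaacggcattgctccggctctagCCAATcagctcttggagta
Rrm1: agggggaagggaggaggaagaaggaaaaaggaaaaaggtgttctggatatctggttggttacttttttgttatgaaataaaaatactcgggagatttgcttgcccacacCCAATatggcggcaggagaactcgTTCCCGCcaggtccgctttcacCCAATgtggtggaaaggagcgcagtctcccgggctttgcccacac
Mki67 and Top2a carried several CCAAT boxes and CHR cores, and Mki67 an E2F site as well. Mcm6 carried E2F sites in pairs of overlapping matches and no CHR core. In Prc1 the CHR core crosses the start site. Aurka had its CHR core 33 bases after the start, outside the stretch shown, and Rrm1 had none in the window. The share with a CHR core was 12 of 20 (60%) among members with a promoter that were lower at 8 than at 4 weeks, and 6 of 10 (60%) among those tested that were not. For the CCAAT box the shares were 16 of 20 (80%) and 8 of 10 (80%), and for the E2F site 8 of 20 (40%) and 3 of 10 (30%).

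The comparison of 6 with 4 weeks asked what changed in the muscle before puberty. Of the 38 members tested, 15 were lower and none was higher at 6 weeks (edgeR quasi-likelihood test, Benjamini-Hochberg adjusted p under 0.05 over all genes tested), where 3.85% of all genes tested were lower and 3.29% higher. Of the 12 members that had enough counts only through the 4-week libraries, which favors genes high there, 7 were lower at 6 weeks. They were Ccna2, Cdk1, Bub1, Kif15, Nusap1, Prc1 and Ect2, and the rest of the 12 were Ccnb1, E2f1, Foxm1, Cenpe and Kif4. Of the other 26, which had enough counts in the 6-week and 8-week libraries alone, 8 were lower. Their median log2 fold change was −0.73, against −0.01 over all genes tested. Over all 47 members, tested or not, 36 were lower in each 6-week library than in each 4-week library, and 1, Tk1, was higher in each. Among the 38 tested 30 were lower in every library in this way, and among all genes tested 29.8% were. These counts of members take in the 12 that were tested only through the 4-week libraries, which can raise them.

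At 8 weeks against 4 weeks, 23 members were lower and 1, Aurka, was higher, where 8.95% of all genes tested were lower and 9.5% higher. Of the 12 members with enough counts only through the 4-week libraries 10 were lower. Of the 26 members with enough counts without them, 13 were lower and 1 higher, with a median log2 fold change of −0.88, against −0.01 over all genes tested. Over all 47 members, 33 were lower in every 8-week than in every 4-week library, and of the 38 tested 27 were (25.1% of all genes tested). Here too the 12 members tested only through the 4-week libraries can raise the counts. Both comparisons use the same 4-week libraries and are not independent. Scaled by library totals alone, the log2 fold changes of all genes shifted by a median of −0.19 at 8 against 4 weeks, and the genes called changed from 1422 higher and 1341 lower to 446 higher and 2000 lower, while the members changed to 1 higher and 27 lower.

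These counts leaned on single libraries. Without 4 weeks replicate 2, 3 members were lower at 6 against 4 weeks (Mki67, Ccnd1 and Ccna2) and 7 at 8 against 4 weeks (Mki67, Top2a, Ccnd1, Mcm6, Ube2c, Kif11 and Prc1), so the other calls at 8 weeks, Aurka included, were lost. Without 6 weeks replicate 1, 2 members were lower at 6 weeks (Mki67 and Ccnd1), and without 6 weeks replicate 2, 5 were (also Top2a, Ccna2 and Cdk1). With no filter on low counts 5 members were lower at 6 weeks, and by the DESeq2 Wald test 15 members passed at 8 weeks. The calls over all genes moved as well, from 1070 at 6 against 4 weeks to 84 without 4 weeks replicate 2, 42 without 6 weeks replicate 1 and 364 without 6 weeks replicate 2, and from 2763 at 8 against 4 weeks to 810 without 4 weeks replicate 2. With 1 library left at an age, its spread is taken to be that of the other ages. Mki67 and Ccnd1 at 6 weeks, and the 7 members just named at 8 weeks, passed in all alternatives run.

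**Figure D1:**
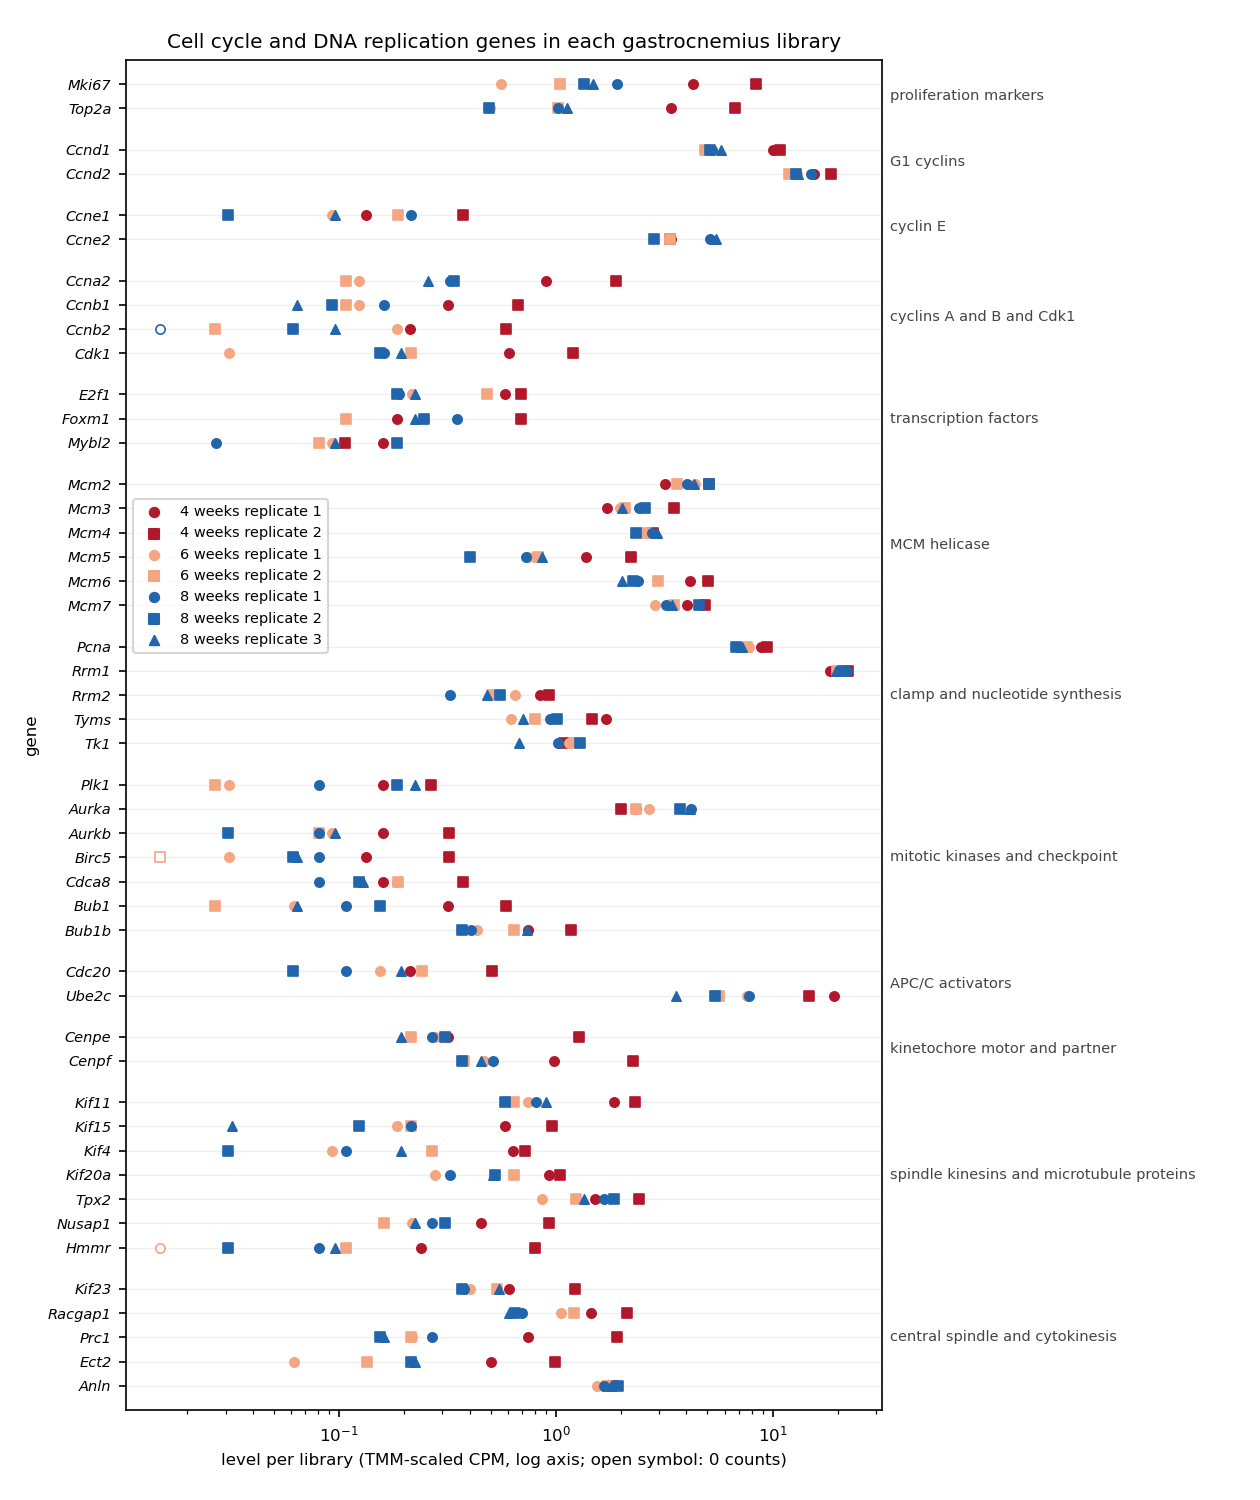
Level of each of the 47 members in each of the 7 libraries, in TMM-scaled CPM on a log axis, with members grouped by role. Red symbols are 4 weeks, orange 6 weeks and blue 8 weeks, the shape gives the replicate, and an open symbol at the left edge is a library with 0 counts. Most red symbols lie to the right of the others, and replicate 2 at 4 weeks is the highest library for 39 of the 47 members.

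The proliferation markers were lower at both later ages. Mki67 (chromosome 7 of GRCm38, 135689784 to 135716361), which encodes the chromosome surface protein Ki-67 present in cycling cells, had 162 and 315 counts at 4 weeks, 18 and 39 at 6 weeks, and 71, 44 and 46 at 8 weeks. The 4-week libraries did not overlap with any other, and the pair at 4 weeks differed from each other by more than the libraries at 6 or 8 weeks did. In CPM the means were 6.35 ± 2.90 (SD, n = 2), 0.801 ± 0.345 (SD, n = 2) and 1.58 ± 0.294 (SD, n = 3). The log2 fold change was −2.96 (SE 0.36, adjusted p = 0.00308 by edgeR) at 6 against 4 weeks and −2.0 (SE 0.291, adjusted p = 0.00125) at 8 against 4 weeks. Top2a (chromosome 11, 98992943 to 99024189), the topoisomerase that untangles replicated DNA, had 128 and 251 counts at 4 weeks, 16 and 38 at 6 weeks, and 38, 16 and 35 at 8 weeks. Here too no 6-week or 8-week library reached a 4-week one. Its log2 fold change was −2.71 (SE 0.417, adjusted p = 0.00737 by edgeR) at 6 weeks and −2.51 (SE 0.359, adjusted p = 0.00113) at 8 weeks.

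The D-type cyclins, which activate Cdk4 and Cdk6 in G1, were among the better counted members. Ccnd1 (chromosome 7, 144929931 to 144939925) had 380 and 404 counts at 4 weeks, 156 and 181 at 6 weeks, and 194, 166 and 180 at 8 weeks. Unlike Mki67, its pair at 4 weeks lay close together, at 10.1 and 10.8 CPM. It fell by 1.11 on the log2 scale at 6 weeks (SE 0.135, adjusted p = 0.00308 by edgeR) and by 0.96 at 8 weeks (SE 0.120, adjusted p = 0.000614). Ccnd2 had more CPM, which are not corrected for length, at 15.5 and 18.5 at 4 weeks, 13.0 and 11.9 at 6 weeks, and 15.1, 12.8 and 13.1 at 8 weeks. Per kilobase of exon Ccnd2 was below Ccnd1 at 4 weeks (1.81 against 2.22 CPM) and above it at 6 and 8 weeks. Each later library of Ccnd2 was below each 4-week one by a small margin, and neither difference passed (log2 fold change −0.45, SE 0.134, adjusted p = 0.0659 by edgeR, and −0.31, SE 0.121, adjusted p = 0.0945). Of the genes of cyclin E, the partner of Cdk2 at the entry to S phase, only Ccne2 was tested. Ccne2 had 3.40 and 3.36 CPM at 4 weeks, 3.31 and 3.38 at 6 weeks, and 5.12, 2.83 and 5.46 at 8 weeks, with 8 weeks replicate 2 below and the other 8-week libraries above the rest. Its log2 fold changes were −0.01 (SE 0.261) and 0.40 (SE 0.236), and neither passed. Ccne1 had 1 to 14 counts per library and was not tested. Per kilobase of exon it was at 0.095 ± 0.064 CPM at 4 weeks (SD, n = 2). Later it was at 0.053 ± 0.025 at 6 weeks (SD, n = 2) and 0.043 ± 0.035 at 8 weeks (SD, n = 3).

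The mitotic cyclins and their kinase were rare at 4 weeks and close to the counting floor after it. Ccna2, cyclin A, which acts in S phase and early mitosis, had 34 and 71 counts at 4 weeks, 4 and 4 at 6 weeks, and 12, 11 and 8 at 8 weeks. Every later library was below both 4-week ones, and the log2 fold change was −3.56 (SE 0.508, adjusted p = 0.00551 by edgeR) at 6 weeks and −2.17 (SE 0.373, adjusted p = 0.00303) at 8 weeks. Cdk1, the kinase that drives entry into mitosis, had 23 and 45 counts at 4 weeks, 1 and 8 at 6 weeks, and 6, 5 and 6 at 8 weeks, with log2 fold changes of −2.78 (SE 0.580, adjusted p = 0.0194) and −2.40 (SE 0.488, adjusted p = 0.00729). Ccnb1, its B-type cyclin, had 12 and 25 counts, then 4 and 4, then 6, 3 and 2. It passed at 8 weeks (log2 fold change −2.14, SE 0.535, adjusted p = 0.0188 by edgeR) and not at 6 weeks (−2.06, SE 0.593, adjusted p = 0.0595). Ccnb2, a further B-type cyclin, had too few counts for a test, with 8 and 22 at 4 weeks against 0 to 6 in the later libraries. All 3 tested genes of the group had enough counts only through the 4-week libraries.

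**Figure D2:**
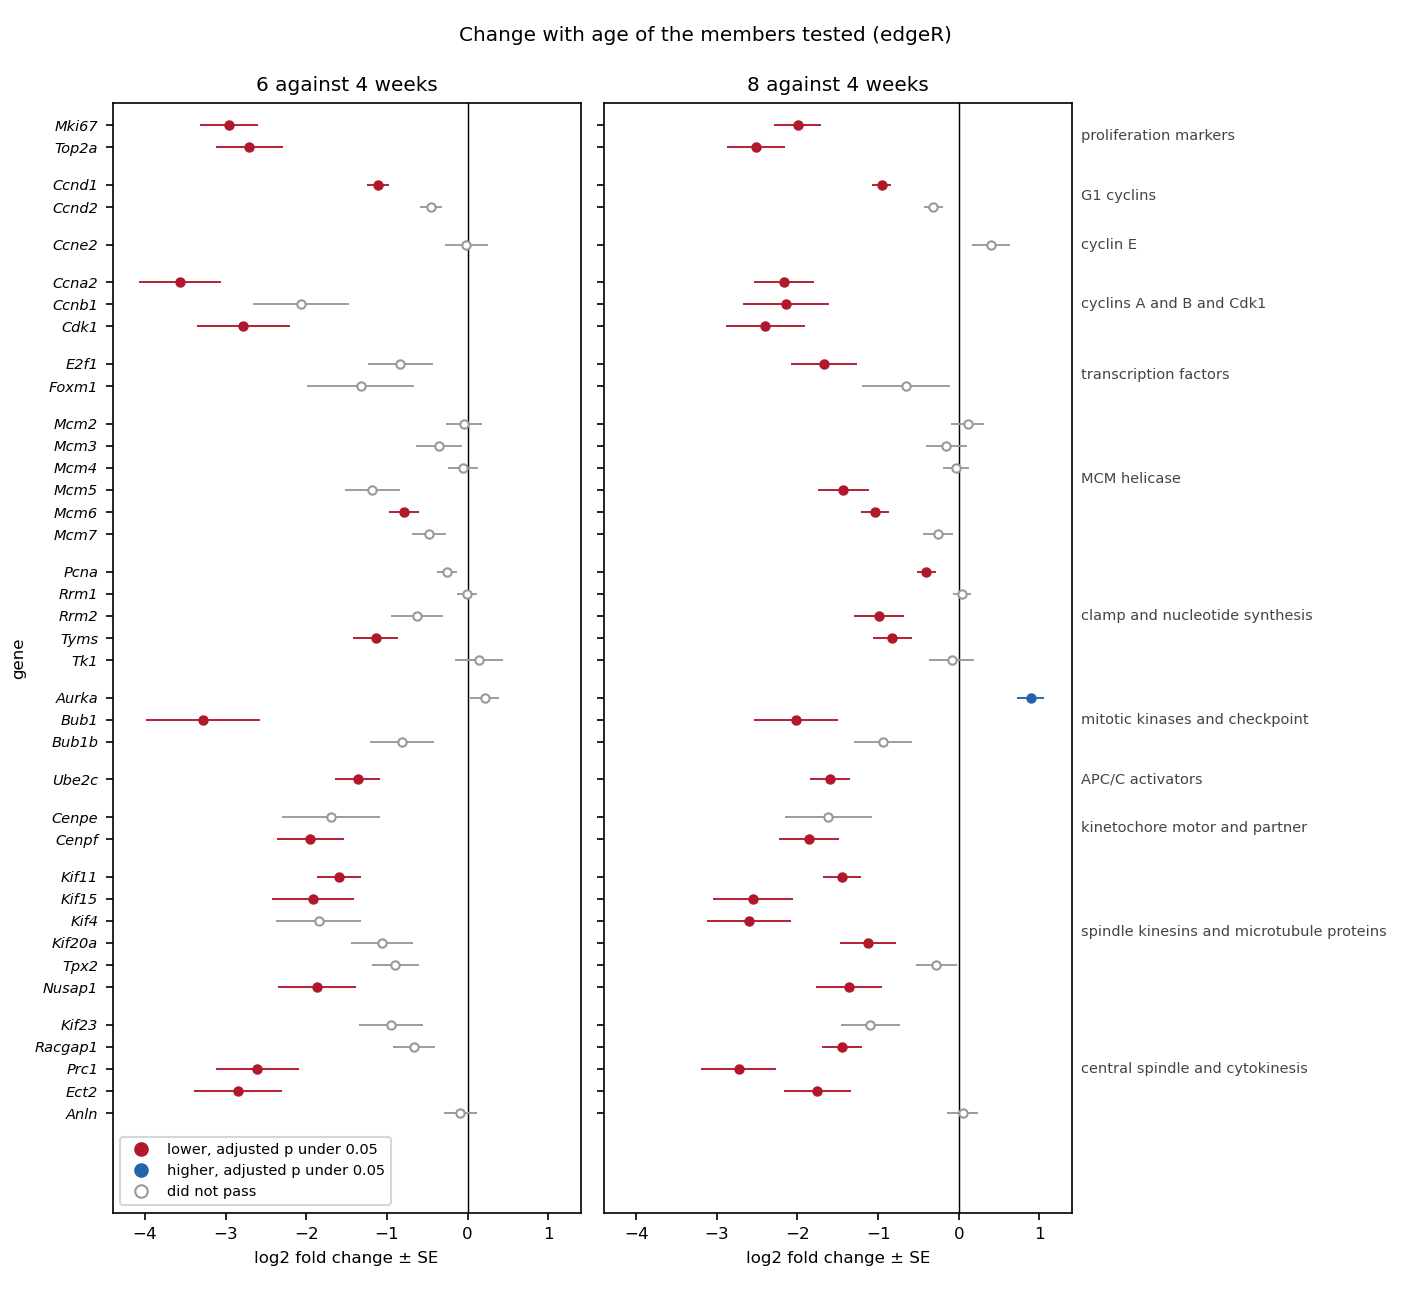
Log2 fold change with its standard error for the 38 members tested, at 6 against 4 weeks (left) and 8 against 4 weeks (right), by edgeR. Filled red points were lower and the filled blue point higher with an adjusted p under 0.05, and open grey points did not pass. Of the points, 15 on the left and 23 on the right are red, and Aurka alone is blue.

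The transcription factors were all rare. E2f1, an activator of S-phase genes, had 22 and 26 counts at 4 weeks, 7 and 18 at 6 weeks, and 7, 6 and 7 at 8 weeks. Replicate 2 at 6 weeks was near the 4-week level and the 8-week libraries were all low. E2f1 had enough counts for a test only through the 4-week libraries. It was lower at 8 weeks (log2 fold change −1.67, SE 0.411, adjusted p = 0.0176 by edgeR) and did not pass at 6 weeks (−0.83, SE 0.408, adjusted p = 0.244). Foxm1, which activates genes of G2 and mitosis, had 7 and 26 counts at 4 weeks, 8 and 4 at 6 weeks, and 13, 8 and 7 at 8 weeks, so the ages overlapped and neither comparison passed (adjusted p = 0.258 and 0.441). Mybl2, B-Myb, which joins the MuvB core in dividing cells, had 1 to 6 counts and was not tested.

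Of the 6 subunits of the MCM helicase, 1 was lower at 6 weeks and 2 at 8 weeks. Of all genes tested, 3.85% and 8.95% were. All 6 had log2 fold changes below 0 at 6 weeks, and 5 had at 8 weeks. Whether the subunits differed from each other was not tested. Mcm6 (chromosome 1, 128331590 to 128359664) had 157 and 189 counts at 4 weeks, 76 and 110 at 6 weeks, and 89, 74 and 63 at 8 weeks, with no overlap. It was lower by 0.79 on the log2 scale at 6 weeks (log2 fold change −0.79, SE 0.188, adjusted p = 0.0306 by edgeR) and by 1.04 at 8 weeks (−1.04, SE 0.172, adjusted p = 0.00244). Mcm5 had 52 and 83 counts, then 24 and 31, then 27, 13 and 27, and passed at 8 weeks (−1.43, SE 0.312, adjusted p = 0.00993) but not at 6 weeks (−1.18, SE 0.340, adjusted p = 0.0594). Mcm2 had 3.19 and 5.09 CPM at 4 weeks, 4.40 and 3.62 at 6 weeks, and 4.02, 5.08 and 4.33 at 8 weeks, and the ages overlapped. Mcm4 was close to level, at 2.74 ± 0.0847 CPM (SD, n = 2), 2.63 ± 0.0433 (SD, n = 2) and 2.68 ± 0.302 (SD, n = 3). The log2 fold changes of Mcm2, Mcm3, Mcm4 and Mcm7 lay between −0.48 (Mcm7) and −0.05 (Mcm2) at 6 weeks and between −0.25 (Mcm7) and 0.11 (Mcm2) at 8 weeks, with standard errors of 0.166 (Mcm4) to 0.289 (Mcm3), and none of them passed.

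Among the clamp and the enzymes of nucleotide synthesis, too, some genes passed and others did not. Pcna, the sliding clamp of DNA polymerases, had 8.87 and 9.44 CPM at 4 weeks, 7.80 and 7.59 at 6 weeks, and 6.82, 6.78 and 7.22 at 8 weeks. The ages formed separate steps, but the steps were small. Pcna was lower at 8 weeks (log2 fold change −0.40, SE 0.114, adjusted p = 0.0319 by edgeR) and did not pass at 6 weeks (−0.25, SE 0.125, adjusted p = 0.252). Tyms, thymidylate synthase, had 64 and 55 counts, then 20 and 30, then 35, 33 and 22, and was lower at 6 weeks (−1.14, SE 0.275, adjusted p = 0.0324) and at 8 weeks (−0.83, SE 0.241, adjusted p = 0.0350). Rrm1 and Rrm2 encode the subunits of ribonucleotide reductase, of which the small one, Rrm2, is the one made in S phase. Rrm1 had 18.5 and 22.2 CPM at 4 weeks, 20.6 and 19.9 at 6 weeks, and 22.0, 21.2 and 19.5 at 8 weeks, which overlap, with log2 fold changes of −0.01 (SE 0.121) and 0.04 (SE 0.111). Rrm2 had 32 and 35 counts, then 21 and 19, then 12, 18 and 15, and was lower at 8 weeks only (−0.99, SE 0.307, adjusted p = 0.0458, and −0.63, SE 0.326, adjusted p = 0.274 at 6 weeks). Whether the 2 subunits differed from each other was not tested. Tk1, the thymidine kinase of the salvage pathway, had 39 and 41 counts at 4 weeks, 37 and 45 at 6 weeks and 38, 42 and 21 at 8 weeks, and did not pass in either comparison.

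Among mitotic kinases and checkpoint genes, Aurka stood alone. It encodes Aurora A, the kinase of centrosomes and spindle poles, and had 88 and 75 counts at 4 weeks, 87 and 87 at 6 weeks, and 156, 121 and 129 at 8 weeks. All 8-week libraries were above all others, at 4.02 ± 0.260 CPM (SD, n = 3) against 2.17 ± 0.237 at 4 weeks (SD, n = 2) and 2.51 ± 0.255 at 6 weeks (SD, n = 2). The rise at 8 against 4 weeks was 0.89 on the log2 scale (SE 0.166, adjusted p = 0.00455 by edgeR, and 0.00104 to 0.0692 over the alternatives, the highest without 4 weeks replicate 2), and at 8 against 6 weeks the log2 fold change of 0.68 did not pass (SE 0.165, adjusted p = 0.138). Bub1, a kinase of the spindle checkpoint, had 12 and 22 counts, then 2 and 1, then 4, 5 and 2, and was lower at 6 weeks (log2 fold change −3.29, SE 0.706, adjusted p = 0.0201) and 8 weeks (−2.02, SE 0.520, adjusted p = 0.0205). Bub1 had enough counts for a test only through the 4-week libraries. Bub1b, which holds the anaphase-promoting complex in check, had 28 and 44 counts, then 14 and 24, then 15, 12 and 23. Each later library was below each 4-week one and neither difference passed (adjusted p = 0.238 and 0.0932). Plk1, Aurkb, Birc5 and Cdca8, a polo-like kinase and members of the chromosomal passenger complex, were not tested. Their 4-week libraries held 5 to 14 counts each and the later ones 0 to 7.

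Ube2c and Cdc20 act with the anaphase-promoting complex, the former as the enzyme that hands over ubiquitin and the latter as its activator in mitosis. Ube2c (chromosome 2, 164769898 to 164778822) had 726 and 554 counts at 4 weeks, 245 and 211 at 6 weeks, and 289, 176 and 112 at 8 weeks. It was one of few members with 4 weeks replicate 1 above replicate 2. Its log2 fold change was −1.36 (SE 0.280, adjusted p = 0.0187 by edgeR) at 6 weeks and −1.60 (SE 0.250, adjusted p = 0.00183) at 8 weeks. Per kilobase of exon it was the highest member at 4 weeks, at 6.55 CPM per kilobase, followed by Pcna at 3.81 and Ccnd1 at 2.22, where Mki67 was at 0.631 and Mybl2, the lowest, at 0.0287. At 8 weeks Pcna led with 2.89 CPM per kilobase, then Ube2c with 2.16, Rrm1 with 1.90 and Aurka with 1.59. No other gene of the annotation shares exon bases with Ube2c on its strand. Without Ube2c the members summed to 105 and 139 CPM at 4 weeks and to 79.1 to 89.1 CPM in the later libraries, so the order of the ages in the sum did not rest on it. Cdc20 had 8 and 19 counts at 4 weeks and 2 to 9 in the later libraries and was not tested.

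Of 6 spindle kinesins and microtubule proteins tested, 3 were lower at 6 weeks and 5 at 8 weeks. Of the kinetochore pair Cenpf passed at both ages. Of all genes tested, 3.85% were lower at 6 weeks and 8.95% at 8 weeks. Kif15, Kif4, Nusap1 and Cenpe had enough counts for a test only through the 4-week libraries, which can raise the counts. Cenpf, a protein of the outer kinetochore, had 37 and 85 counts at 4 weeks, 15 and 14 at 6 weeks, and 19, 12 and 14 at 8 weeks. Its log2 fold change was −1.95 (SE 0.418, adjusted p = 0.0208 by edgeR) at 6 weeks and −1.86 (SE 0.368, adjusted p = 0.00620) at 8 weeks. Cenpe, a kinesin of the kinetochore, had 12 and 48 counts at 4 weeks and 6 to 10 later. Replicate 2 at 4 weeks was 4.02 times replicate 1 in CPM, the widest such ratio among the 47 members, and neither comparison passed (adjusted p = 0.119 and 0.0591). Kif11, the kinesin that pushes spindle poles apart, had 70 and 87 counts at 4 weeks, 24 and 24 at 6 weeks, and 30, 19 and 28 at 8 weeks. Its 4-week pair agreed well, and the log2 fold change was −1.59 (SE 0.273, adjusted p = 0.0102) at 6 weeks and −1.45 (SE 0.240, adjusted p = 0.00251) at 8 weeks.

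The other spindle genes, apart from Tpx2, had 0 to 39 counts per library. Kif15, a kinesin that backs up Kif11, had 22 and 36 counts, then 6 and 8, then 8, 4 and 1, with log2 fold changes of −1.92 (SE 0.507, adjusted p = 0.0446 by edgeR) and −2.55 (SE 0.493, adjusted p = 0.00555). Kif4, a kinesin bound to chromosomes, had 24 and 27 counts, then 3 and 10, then 4, 1 and 6, and Kif20a, a kinesin of cytokinesis, had 35 and 39, then 9 and 24, then 12, 17 and 16. Both were below the 4-week libraries in every later one, and Kif4 was tested only through its 4-week counts. They passed at 8 weeks (Kif4 −2.60, SE 0.521, adjusted p = 0.00675, and Kif20a −1.13, SE 0.35, adjusted p = 0.0453) and not at 6 weeks (adjusted p = 0.0581 and 0.120). Nusap1, which binds spindle microtubules, had 17 and 35 counts, then 7 and 6, then 10, 10 and 7, and was lower at 6 weeks (−1.87, adjusted p = 0.0432) and 8 weeks (−1.36, adjusted p = 0.0398). Kif15 and Nusap1 were also tested only through their 4-week counts. Tpx2, the activator of Aurora A on the spindle, had 57 and 91 counts, then 28 and 46, then 62, 60 and 42. Its 8-week libraries overlapped with the 4-week ones, and it did not pass at 6 weeks (−0.90, SE 0.293, adjusted p = 0.0887) or 8 weeks (−0.28, SE 0.253, adjusted p = 0.484). Hmmr, a microtubule protein, had 9 and 30 counts at 4 weeks and 0 to 4 later and was not tested.

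The genes of the central spindle and cytokinesis, which act as the cell divides in the middle, ended the list. Prc1, which bundles the midzone microtubules, had 28 and 72 counts at 4 weeks, 7 and 8 at 6 weeks, and 10, 5 and 5 at 8 weeks. Its log2 fold change was −2.61 (SE 0.519, adjusted p = 0.0169 by edgeR) at 6 weeks and −2.73 (SE 0.466, adjusted p = 0.00296) at 8 weeks. Ect2, which activates RhoA for the contractile ring, had 19 and 37 counts, then 2 and 5, then 8, 7 and 7, with −2.85 (SE 0.548, adjusted p = 0.0151) and −1.75 (SE 0.418, adjusted p = 0.0151). Prc1 and Ect2 had enough counts for a test only through the 4-week libraries. Racgap1 and Kif23 form the centralspindlin complex. Racgap1 had 55 and 80 counts at 4 weeks, 34 and 45 at 6 weeks, and 26, 21 and 19 at 8 weeks, and its 8-week libraries were all under its 6-week ones. It was lower at 8 weeks (−1.45, SE 0.248, adjusted p = 0.00294) and did not pass at 6 weeks (−0.66, SE 0.256, adjusted p = 0.141). Kif23 had 23 and 46 counts, then 13 and 20, then 14, 12 and 17, and passed in neither (adjusted p = 0.174 and 0.0595). Anln, anillin, a scaffold of the contractile ring, stood at 1.74 ± 0.1, 1.63 ± 0.119 (SD, n = 2 each) and 1.80 ± 0.134 CPM (SD, n = 3) and passed at neither age.

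**Figure D3:**
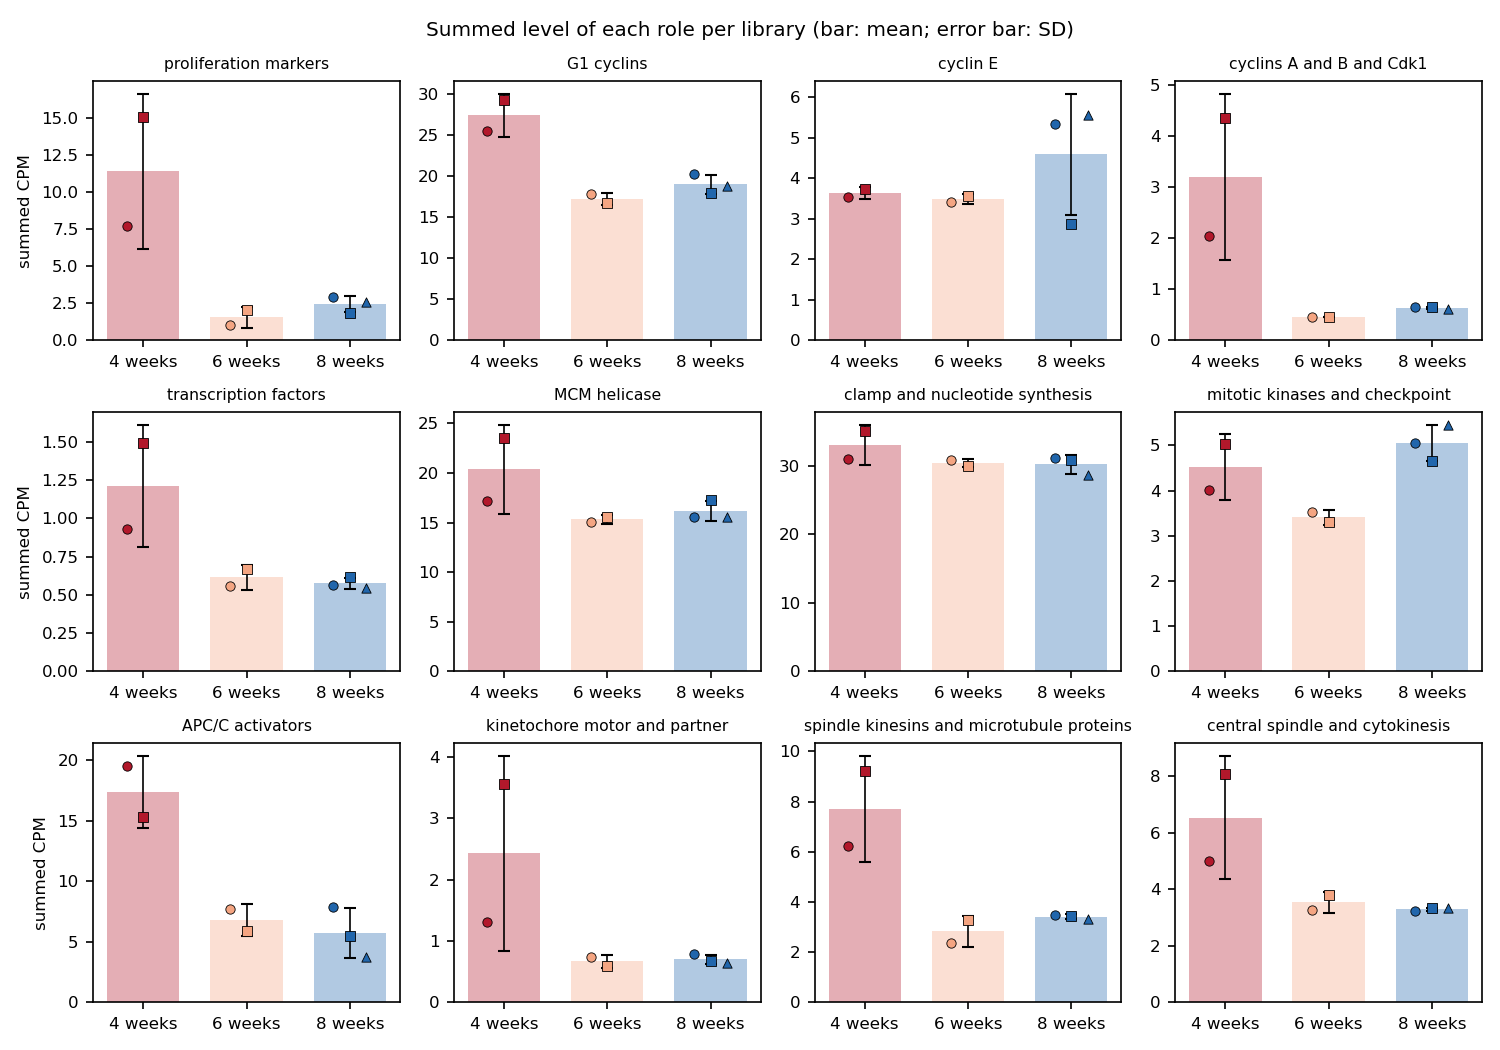
Summed CPM of the members of each of the 12 roles. Bars are the mean of an age, error bars the SD, and symbols the single libraries (n = 2, 2 and 3). For cyclins A and B with Cdk1 the 4-week libraries are at 2.04 and 4.35 CPM and the later ones at 0.456 to 0.647, whereas for clamp and nucleotide synthesis all libraries lie between 28.6 and 35.1.

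Summed by role, cyclins A and B with Cdk1 were at 2.04 and 4.35 CPM in the 4-week libraries and at 0.456 to 0.647 in the later ones, and the proliferation markers were at 7.70 and 15.1 against 1.05 to 2.94. The MCM genes stood at 17.2 and 23.5 CPM at 4 weeks and 15.0 to 17.3 later, so that 4 weeks replicate 1 lay within the later range. The clamp and nucleotide synthesis genes, of which Rrm1 made up most, were at 30.9 and 35.1 CPM at 4 weeks and 28.6 to 31.1 later. The mitotic kinases and checkpoint genes overlapped as well, at 4.01 and 5.04 against 3.30 to 5.46, Aurka being the most abundant of them.

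Between 6 and 8 weeks none of the 38 members tested passed by edgeR, where 0.147% of all genes tested were lower and 0.0267% higher, and none passed by the DESeq2 Wald test or limma-voom. At an unadjusted p under 0.05 there were 5 of the 38 members, where 12.3% of all genes tested were. The median log2 fold change over the 26 members with enough counts without the 4-week libraries was 0.12, against 0.02 over all genes tested. The change from 4 to 6 weeks minus that from 6 to 8 weeks tests whether the steps differ as signed changes. A fall followed by a rise therefore adds up, and the difference is not the excess in size of the first step. Mki67 and Ccnd1 had such a course, with mean levels lower at 6 than at 4 weeks and higher at 8 than at 6 weeks. By edgeR no member passed, where 0.0267% of all genes tested were lower and 0.0668% higher, and 15 of the 38 members had an unadjusted p under 0.05, as did 12.4% of all genes tested. The 38 include the 12 members tested only through the 4-week libraries, which can raise this count. The median difference was −2.19 over those 12 and −0.64 over the other 26. Mki67 had an adjusted p of 0.0618 (log2 difference −3.93, SE 0.669) and Ccnd1 one of 0.0784 (−1.26, SE 0.235). Both passed by the DESeq2 Wald test, Mki67 with an adjusted p of 1.0e-05 and Ccnd1 with 0.0289. Over the alternatives run the adjusted p ranged from 1.0e-05 to 0.371 for Mki67 and from 0.0208 to 0.432 for Ccnd1.

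Other genes of the cycle, listed by function, were compared in the same fit. As above, 3.85% of all genes tested were lower and 3.29% higher at 6 weeks, and 8.95% and 9.5% at 8 weeks. Of 54 other mitotic genes, 34 were tested, 11 of them only through the 4-week libraries. Of the other 23, 2 were lower at 6 weeks (Cenpa and Aspm) and 6 at 8 weeks, none was higher, and the medians were −0.49 and −0.59 against −0.01 for all genes tested. Of the 11, whose choice favors high 4-week values, 4 were lower at 6 weeks and 8 at 8 weeks. Those 11 included Ckap2, a spindle protein, with 23 and 29 counts at 4 weeks, 2 and 4 at 6 weeks, and 5, 2 and 4 at 8 weeks (log2 fold change −2.96, adjusted p = 0.0109, and −2.63, adjusted p = 0.00254, by edgeR), and Knl1, a kinetochore scaffold (−2.12, adjusted p = 0.0209, and −2.07, adjusted p = 0.00569), and Pbk, a mitotic kinase (−3.29, adjusted p = 0.0238, and −4.28, adjusted p = 0.00269). Aspm, a spindle pole protein with enough counts without the 4-week libraries, had log2 fold changes of −2.03 (adjusted p = 0.0293) and −2.15 (adjusted p = 0.0066). Of 40 replication factors, 37 were tested, 4 of them only through the 4-week libraries. Of the other 33, 1 was lower at 6 weeks and 3 at 8 weeks, near the share of all genes tested, with medians of −0.09 and −0.06. Uhrf1, which keeps DNA methylation through replication, was lower at both ages (−1.99, adjusted p = 0.0272, and −2.51, adjusted p = 0.0032), as were Cdc7, the kinase that fires origins (−1.37, adjusted p = 0.0348, and −1.94, adjusted p = 0.00261), and Chaf1b, a histone chaperone (−2.97, adjusted p = 0.0272, and −1.69, adjusted p = 0.0384). Uhrf1 and Chaf1b were tested only through the 4-week libraries.

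The upstream regulators were called in both directions, in few genes per list, and are to be read against the same shares of all genes. Of 10 CDK inhibitors and pocket proteins, 9 were tested. Cdkn1c, the imprinted inhibitor p57, was the one that fell, with 44.9 and 48.2 CPM at 4 weeks, 11.9 and 19.5 at 6 weeks, and 9.90, 10.6 and 7.16 at 8 weeks (log2 fold change −1.56, adjusted p = 0.00516, and −2.33, adjusted p = 8.9e-05, by edgeR). As background, it stops the cycle and does not drive it. Rbl2, the pocket protein p130 of resting cells, rose from 30.5 ± 0.933 CPM at 4 weeks (SD, n = 2) to 41.3 ± 0.583 at 8 weeks (SD, n = 3; log2 fold change 0.44, adjusted p = 0.00831). Rb1, Cdkn1a and Cdkn1b did not pass at either age. Of 5 partners of G1 cyclins, Cdk6 was lower at 6 weeks (−0.97, adjusted p = 0.0275) and 8 weeks (−0.87, adjusted p = 0.0125), and Ccnd3 (−0.58, adjusted p = 0.00785) and Cdk2 (−0.80, adjusted p = 0.0172) at 8 weeks. At 8 weeks 3 of the 5 were thus lower, where 8.95% of all genes tested were. All 5 log2 fold changes were below 0 at each age, with list medians of −0.35 and −0.58. Of 14 E2F and DREAM factors tested, E2f4, the repressor E2F of resting cells, was higher at 6 weeks (0.58, adjusted p = 0.0303) and 8 weeks (0.71, adjusted p = 0.00355), E2f6 and Tfdp2 were higher at 8 weeks, and E2f2 was lower at 8 weeks (−1.28, adjusted p = 0.00248). Of 15 genes of the anaphase-promoting and SCF ubiquitin ligases none passed at 6 weeks, and at 8 weeks Anapc5 was higher (0.78) and Cdc16 (−0.35) and Skp2 (−0.78) were lower, a share near that of all genes tested.

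**Figure D4:**
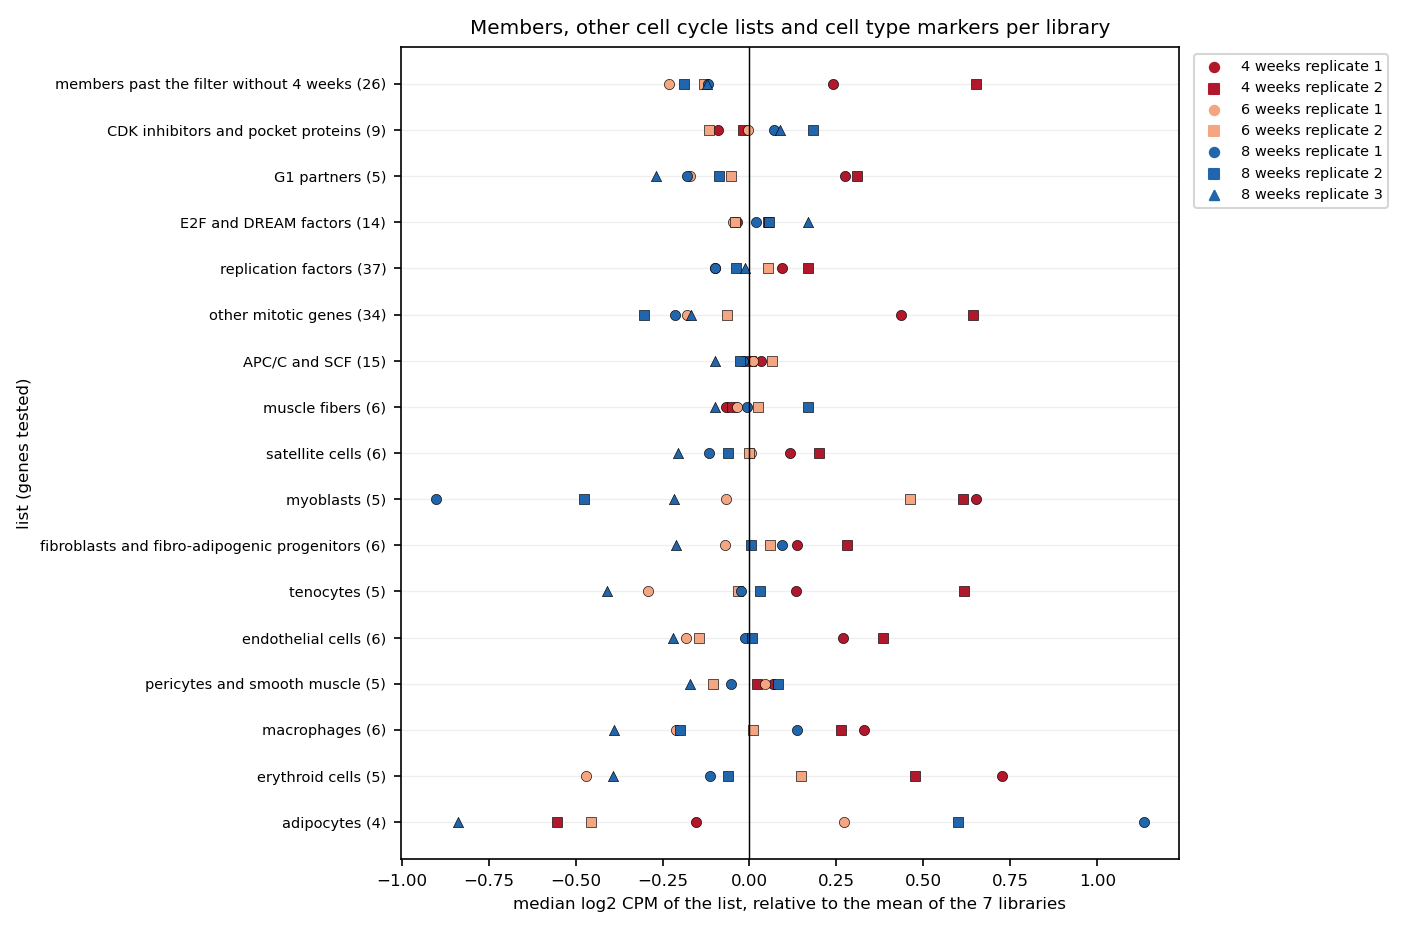
Median log2 CPM of each gene list in each library, relative to the mean of the 7 libraries, with the number of genes tested in parentheses (for other mitotic genes 11, for replication factors 4 of them tested only through the 4-week libraries). Colors and shapes are as in the plot of members. The members shown are the 26 with enough counts without the 4-week libraries, for which the 4-week libraries are at 0.24 and 0.65 and the later ones at −0.23 to −0.12.

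Markers of other cell types were read against the same shares of all genes, 3.85% lower at 6 weeks and 8.95% lower at 8 weeks. The median of the 26 members with enough counts without the 4-week libraries was 0.24 and 0.65 above the mean of the libraries at 4 weeks (log2) and −0.23 to −0.12 in the later ones. Of 6 endothelial markers, 5 were lower at 6 weeks and none higher, and 4 were lower and 1 higher at 8 weeks, and their summed level was 231 and 248 CPM at 4 weeks and 177 to 205 in the later libraries. Pecam1, a junction protein of endothelium, had 50.3 and 64.7 CPM at 4 weeks, 32.2 and 34.2 at 6 weeks, and 41.5, 42.8 and 38.2 at 8 weeks. Of 6 myoblast markers, 5 were tested, and 3 were lower at 6 weeks (Myh3, Myh8 and Tmem8c) and 4 at 8 weeks (also Myog). At 6 weeks 1 tested marker went the other way and was higher in each 6-week than in each 4-week library. Its log2 fold change of 0.82 had an unadjusted p under 0.05 by edgeR and did not pass after adjustment. Myh3 and Myh8 are myosin heavy chain genes, and whether their RNA came from myoblasts or fibers was not tested. The list summed to 18.7 and 23.1 CPM at 4 weeks, 15.2 and 14.8 at 6 weeks and 7.82 to 10.05 at 8 weeks. Tmem8c (Mymk), the fusion protein myomaker, had 47 and 38 counts, then 5 and 15, then 1, 2 and 0, and was tested only through the 4-week libraries. Myog, the differentiation factor myogenin, fell at 8 weeks (log2 fold change −2.03, adjusted p = 0.000975 by edgeR). Of 6 satellite cell markers, 2 were lower at 6 weeks and 1 at 8 weeks, and their sum was 28.1 and 28.6 CPM at 4 weeks and 21.5 to 24.6 later. The log2 fold change was above 0 for 3 of the 6 at 6 weeks (list median 0.04) and for 2 at 8 weeks (list median −0.45). Pax7 itself had 1.99 and 1.87 CPM at 4 weeks, 2.01 and 1.85 at 6 weeks, and 1.70, 2.46 and 1.67 at 8 weeks, which overlap.

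Of 6 erythroid markers, 5 were tested, and 3 were lower at 6 weeks and 4 at 8 weeks, summing to 149 and 123 CPM at 4 weeks against 62.5 to 90.9 later. Of 6 macrophage markers 1, Mrc1, was lower at both ages, with sums of 85.7 and 95.6 against 52.7 to 74.8 CPM. Of 5 tenocyte markers 3 were lower at 6 weeks and 2 at 8 weeks, with sums of 164 and 186 against 113 to 155 CPM. Of 5 pericyte and smooth muscle markers 1, Acta2, was lower at 6 weeks and 2, Rgs5 and Acta2, at 8 weeks. Their sums were 465 and 447 against 317 to 375 CPM. The log2 fold changes of 3 of the 5 were above 0 at each age, with list medians of 0.10 and 0.02. Of 6 markers of fibroblasts and fibro-adipogenic progenitors none passed at 6 weeks and 2 were lower at 8 weeks, and the sums overlapped (487 and 506 against 427 to 568 CPM). Adipocyte markers overlapped as well. The 6 lymphocyte markers summed to 0.08 to 0.322 CPM and were too rare to test. The part of these markers in the change of the members was not tested.

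A few limits touch single members. The counting used strand and gene names. Exon bases shared with another gene of the same strand were 1.35% for Top2a, 2.5% for Foxm1 and 3.89% for Mcm7, which overlaps the microRNA genes Mir25 and Mir93, and 0 for the other members. Processed copies counted under their own names, of Ccnb2, Pcna and Kif4, held 0 to 3 counts per library.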

How the data were processed

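Total RNA of 7 gastrocnemius muscles was depleted of ribosomal RNA and sequenced from stranded TruSeq libraries. The authors trimmed the reads with Trimmomatic, aligned them with STAR to GRCm38 (mm10 per the labels), and counted reads over exons by gene name and strand with featureCounts. The deposited raw counts, which are not normalized, were used. Deposited sheets of normalized values and of the authors' comparisons (fold changes and p-values) were not used.

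Counts were tested with edgeR 4.0.16 in R 4.3.3: filterByExpr with a minimum count of 10, TMM scaling, 1 mean per age over all 7 libraries, the quasi-likelihood test, and Benjamini-Hochberg adjustment over 14976 genes with a threshold of 0.05. The standard error is the log2 fold change divided by the square root of F, with 4 residual degrees of freedom. The newer form of the quasi-likelihood fit (legacy=FALSE) was taken after counts of called members under both forms had been seen. The members and lists were chosen with earlier results of these data known. Any member could be named, as could any gene of another list of up to 12 genes. Of a longer list, up to 4 higher and 4 lower genes with the smallest p among those that passed in a comparison were named, and of a cell type list the markers that passed and its first 3. Alternatives were DESeq2 1.42.0 (size factors, Wald test), limma-voom (limma 3.58.1), library totals, no filter, only the ages compared, a replicate block, each library left out, and, added after seeing the data, the older form of the fit with and without the filter. Gene positions and exon lengths are from GENCODE on GRCm38, which shares its coordinates with mm10. Depth was 30836057 to 41784144 counts per library. Figures were drawn with matplotlib 3.10.9. The result of 1 marker list is not reported here.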

Additional observations from a re-analysis of the deposited data

How the results depend on the processing

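Of 600 member values at 6 against 4 weeks under the alternatives, 511 kept their direction and side of the threshold, 60 no longer passed, 17 newly passed and 12 changed sign. At 8 against 4 weeks the numbers were 518, 62, 11 and 14 of 605. No value that changed sign passed in either setting. Between 6 and 8 weeks 35 values of 18 members changed sign, and in the difference between steps 17 of 8 members, none of them passing.

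At 6 against 4 weeks 15 members passed, with 5 under no filter on low counts and 2 to 19 when 1 library was left out. At 8 against 4 weeks 24 passed, with 15 by the DESeq2 Wald test and 7 to 24 when 1 library was left out. Between the steps 0 passed, with 1 under library totals, 3 by the DESeq2 Wald test and 0 to 2 when 1 library was left out. The older form of the quasi-likelihood fit, chosen after seeing the data, gave 14, 22, 0 and 0 members in the 4 comparisons, and with no filter 20, 28, 0 and 4. Without a filter the form of the fit thus set whether 5 or 20 members passed at 6 weeks. The cause was not tested.

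Deviations of same-numbered libraries correlated at −0.0927 to 0.0428, and those of differently numbered ones at −0.089 to 0.0927. With 2 libraries at an age the deviations mirror each other, so these values cannot decide whether the replicate numbers pair the libraries. A replicate block gave 18 members at 6 against 4 weeks, 20 at 8 against 4 weeks, 0 at 8 against 6 weeks and 4 between the steps.

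Sign changes at 6 against 4 weeks, as log2 fold changes, were Ccne2 (0.00598 with no filter, 0.00593 with no filter in the older fit, −0.0280 to 0.00262 with a library left out), Rrm1 (0.00612 with DESeq2 size factors, 0.00659 by the Wald test, 0.0131 with no filter in either fit, −0.126 to 0.134 with a library left out), Mcm2 (−0.342 to 0.332 with a library left out) and Mcm3 (−0.771 to 0.243 likewise). At 8 against 4 weeks library totals gave −0.0737 for Mcm2, −0.146 for Rrm1 and −0.143 for Anln, and the replicate block 0.117 for Tk1. With a library left out the ranges were −1.32 to 0.555 for Foxm1, −0.197 to 0.477 for Mcm2, −0.583 to 0.431 for Mcm3, −0.0953 to 0.0414 for Mcm4, −0.0938 to 0.166 for Rrm1, −0.319 to 0.117 for Tk1, −0.588 to 0.0903 for Tpx2 and −0.0224 to 0.101 for Anln. Depth limits the 9 members not tested and those with fewer than 10 counts in the later libraries.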
